A study of Rattus norvegicus with 8 samples.

Results

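The transcripts described here were assembled from sequencing reads rather than taken from a catalogue. Among the rows of the long non-coding RNA (lncRNA) table they are those whose identifier starts with MSTRG, 3316 of 24300 (13.6%). The other rows carry catalogue identifiers of the NONRATT type (20103) or Ensembl transcript identifiers (881). Total RNA of thoracic aorta came from 4 control Wistar libraries and 4 libraries of the Goto-Kakizaki (GK) strain, a non-obese rat line with inherited diabetes whose group is labelled diabetic macroangiopathy. Rats of both groups were 7 to 8 weeks old and no treatment is named. Libraries carry the numbers 7 to 10 in each group. Strain and diabetes split the samples in the same way and cannot be told apart. No label ties a library to an animal of its own, and p-values therefore measure only the spread between these samples, which may be technical. All 8 samples carry GK as source name, a label not used for grouping.

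LncRNAs are transcripts without a long open reading frame. Some act on chromatin or on the transcription of nearby genes, others bind proteins or small RNAs, and for most no role is known. Transcript assembly joins aligned reads into exon chains, numbers each cluster of overlapping chains as a locus, and numbers the alternative chains within it as isoforms. In the name MSTRG.18616.7 the first number is the locus and the second the isoform. Chains assembled inside introns or next to annotated exons can be separate RNAs, unspliced precursor, or unannotated ends of the gene itself, and identifiers alone do not tell these apart.

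Newly assembled transcripts were long. Their median length was 2097 nucleotides (quartiles 966 and 4439, range 202 to 36298), against 659 for NONRATT and 795 for Ensembl rows. A length of 10 kb or more was reached by 213 of them (6.42%), by 2 NONRATT rows and by 0 Ensembl rows. The longest, MSTRG.41526.3, lay between genes on chromosome 9 (29526509 to 29566613, nearest gene Ogfrl1) and the shortest, MSTRG.44263.1 of 202 nucleotides, on chromosome X (106667495 to 106668068). Positions follow the deposited tables, whose genome build no source used here states. The genomic span had a median of 4315 bp and a maximum of 490948 bp. In 1080 members (32.6%) the span exceeded the length by at most 5%, which leaves little or no room for introns. That share was 40.7% among members wholly inside a gene and 24.3% between genes. Among NONRATT rows it was 47.8% and among Ensembl rows 4.77%.

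**Figure D1:**
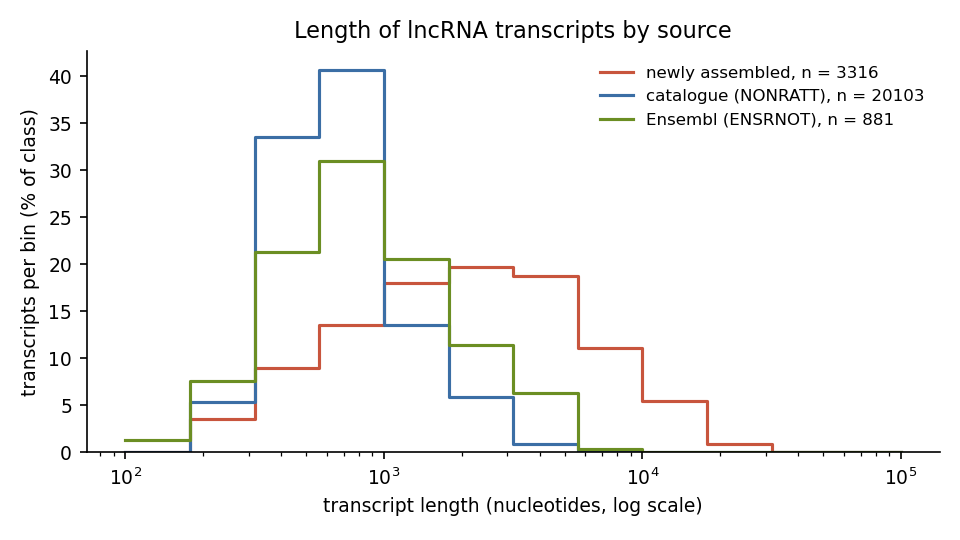
Transcript length in nucleotides (log axis) against the percent of each class per bin, for the 3316 newly assembled, 20103 NONRATT and 881 Ensembl lncRNA rows. Newly assembled transcripts extend to 36298 nucleotides, and 6.42% of them reach 10 kb.

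Most loci were represented by a single transcript. The 3316 members came from 2654 loci, of which 2244 (84.6%) held 1 isoform in the table, 276 held 2 and 134 held 3 or more. The 410 loci with several isoforms gave 1072 transcripts. In 666 loci (25.1%) the highest isoform number exceeded the number of isoforms in the table. Those other isoforms are not analysed here and enter no locus sum. Counting only isoforms in the table, MSTRG.3101 on chromosome 1 had the most (13). Next came MSTRG.20957 (12, with numbers up to 43) inside Arl15, which encodes a small GTPase of the ARF family. MSTRG.12932 (10) followed, near Pcdh7, a protocadherin gene. Isoforms of a locus could be nearly the same molecule, and 51 members shared their exact start and end with another member.

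Most members lay over annotated genes. The span of 1933 members (58.3%) overlapped the span of at least 1 gene, 1805 of them wholly inside it and 128 in part. This was a smaller share than among NONRATT (77.0%) and Ensembl rows (99.8%). The files give no strand, so sense and antisense overlap could not be separated. The 1184 overlapped genes were long, with a median span of 84102 bp against 15218 bp over all 19238 genes of the gene table. Of these, 800 held 1 member and 40 held 5 or more. Rbms3, an RNA-binding protein gene, held 17 members of 8 loci over 984060 bp. Arl15 held 14, and 9 each lay in Utrn (utrophin, a dystrophin relative), Ank2 (an ankyrin that anchors membrane proteins) and Lrrtm3 (a synaptic adhesion protein). Between genes lay 1383 members, 305 of them within 5 kb of a gene and at a median distance of 25641 bp. Chromosome 1 held 334 members and chromosome 2 held 307, while X held 44 and Y held 3, the only Y rows of the lncRNA table. A further 474 members (14.3%) overlapped the span of a catalogue or Ensembl lncRNA.

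Each library gave 1185872 (control 8) to 2031376 (control 10) lncRNA counts and 11760397 to 16266151 gene counts. Contractile smooth muscle markers were all detected (10 of 10), with a summed level of 5872 to 18283 CPM (counts scaled to a common library size) in controls and 2336 to 9434 in GK. Fibroblast markers (7 of 8 found) summed to 6917 to 16173 CPM in controls against 1290 to 5878 in GK, general adipocyte markers (11 of 12) to 8872 to 13169 against 15422 to 25261, and brown adipocyte markers (8 of 10) to 864 to 3527 against 2466 to 6777. In the library GK 9, skeletal muscle markers (7 of 9 found) summed to 19856 CPM. They summed to 14.8 to 45.6 CPM in the other GK libraries and to 51.4 or less in every control. Cardiomyocyte markers (5 of 6 found) summed to 457 CPM in control 7, 694 in GK 7, 1562 in GK 8 and 5.16 or less in the other 5 libraries. Erythroid markers reached 36683 CPM in control 9. Macrophage markers summed to 366 to 1179 CPM in controls against 206 to 452 in GK, and nerve and Schwann cell markers to 90.6 to 700.4 against 230 to 1613, highest in the library numbered 9 of each group. The part of these differences in the results below was not tested. Because the samples are whole tissue, fewer cells of a type and less RNA per cell cannot be told apart.

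Newly assembled transcripts carried a larger share of the lncRNA counts than of the rows. They held 22.9% to 26.9% of the counts in controls and 24.4% to 25.6% in GK. The group means differed by -0.30 percentage points (SD 1.74 in controls and 0.583 in GK, n = 4 each), which an exact two-sided permutation test did not separate from 0 (p = 0.83, smallest possible 0.0286). The sign of that difference turned without control 7 (0.013 points) and without control 10 (0.22 points). In each library 86.8% to 91.7% of the members had a count, with a median count per member of 29 to 62, against 5 to 8 for the other lncRNA. All 8 libraries gave a count for 2527 members (76.2%), and 89 members were counted in 1 library only.

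Per kilobase of transcript the most abundant members lay beside ribosomal RNA genes and a few protein-coding genes. MSTRG.185.2 (chromosome 1, 11912071 to 11914300, 541 nucleotides) lay 1237 bp from a gene named pRNA, a name used for the promoter-associated RNA of ribosomal DNA. Its counts in controls 7 to 10 were 1248, 2042, 6364 and 3612, and in GK 7 to 10 they were 3392, 4858, 10209 and 2772. The highest value of each group was in its library number 9, and the groups overlapped (4525 CPM per kb over all libraries). MSTRG.183.4, 1590 bp from a gene named 5_8S_rRNA, stood at 472 CPM per kb. MSTRG.27853.7 (335 nucleotides, inside Gnas, the gene of the stimulatory G protein alpha subunit) stood at 1505 CPM per kb and did not pass the test (log2 fold change, GK over control, 1.23 ± 0.54 SE, edgeR quasi-likelihood with Benjamini-Hochberg adjustment, adjusted p = 0.281). MSTRG.16045.5 lay 717 bp from Adrb3, the beta-3 adrenergic receptor of adipocytes, at 472 CPM per kb. The other 2 of the 6 highest (1 transcript per locus), MSTRG.1788.1 (3011 CPM per kb) and MSTRG.24385.2 (2614), were likewise not called between the groups (adjusted p = 0.514 and 0.251).

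Counts of single isoforms switched between zero and high values within a group. Of 2311 members that reached 50 counts in some library, 298 (12.9%) had 0 counts in one library and at least 50 in another library of the same group. Over all lncRNA transcripts that share was 6.66%, and among rows other than the newly assembled ones 3.82% (194 of 5072). The pattern sat in loci with several isoforms, at 288 of 806 (35.7%), against 10 of 1505 (0.664%) where the table held 1 isoform. When the isoforms of a locus were summed, 13 of 1881 loci (0.691%) showed it. All 46 members counted in 1 library only with 50 or more counts belonged to loci with several isoforms. No source used here states how reads were shared among overlapping isoforms, and its part was not tested.

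The Arl15 locus MSTRG.20957 shows the switching. Its isoform MSTRG.20957.12 (8638 nucleotides) had 404 counts in control 7, 356 in control 9 and 0 in the other 6 libraries. MSTRG.20957.10 (8640 nucleotides) was counted only in GK 9 (581), and MSTRG.20957.14 (8643 nucleotides) only in GK 10 (315). These 3 share the start 45690973 on chromosome 2 and end at 45709142, 45709142 and 45709141. Summed over its 12 isoforms, the locus had 1932, 871, 1878 and 1998 counts in controls and 2606, 2176, 2646 and 2248 in GK, with no library at 0. The summed groups did not overlap in counts (log2 fold change 0.62 ± 0.17, edgeR adjusted p = 0.0968), and Arl15 itself stood at 0.60 ± 0.19 (adjusted p = 0.0857).

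Between GK and control, 136 newly assembled transcripts from 126 loci changed, 87 higher and 49 lower in GK. They were 5.17% of 2631 members tested by edgeR's quasi-likelihood test (Benjamini-Hochberg adjusted p under 0.05, adjusted over all lncRNA tested), beside 2.74% of all lncRNA transcripts tested, 1.63% higher and 1.11% lower. The other lncRNA gave 2.03%. The 685 members not tested had too few counts or counts in too few libraries, and a transcript counted in 1 group only could pass that filter through this group alone. Members were counted more deeply than the other rows, with a median of mean counts of 77.4 against 31.5 among tested rows. At a mean count of 50 or more, 74 of 1671 members (4.43%) and 92 of 3215 other rows (2.86%) were called. The median log2 fold change of tested members was 0.00, beside -0.01 over all lncRNA tested. The groups did not overlap in CPM for 402 tested members (15.3%, beside 11.7% of all lncRNA tested) and for all 136 called ones. Of the called members 133 changed at least 2-fold, and none had the 0-and-50 pattern within a group.

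Calls were more frequent between genes and in loci with several isoforms. Between genes 78 of 1023 tested members (7.62%) were called, inside genes 54 of 1520 (3.55%) and in partial overlap 4 of 88 (4.55%). Loci with 1 isoform in the table gave 77 of 1912 (4.03%) and loci with several isoforms 59 of 719 (8.21%). Of those 59, 29 were in loci that were also called when their isoforms were summed and 30 were in loci that were not. Summed by locus, 121 of 2317 loci tested were called (5.22%, beside 2.86% of all rows of that table), 77 higher and 44 lower, and 99 of the 121 held a called isoform. These shares were not tested against each other. The number of calls moved with the libraries kept. Leaving out control 10 gave 63 transcripts and 48 loci, GK 8 gave 65 and 44, and GK 7 gave 67 and 45. Leaving out GK 10 gave 80 transcripts and 65 loci, and control 8 gave 83 and 74. Leaving out GK 9 gave 198 transcripts and 198 loci. The share called among all lncRNA moved as well, to 0.979%, 0.899%, 0.876%, 1.15%, 1.34% and 4.77% in these 6 fits. Among all rows with loci summed it moved to 0.891%, 0.759%, 0.718%, 1.16%, 1.5% and 5.68%, in the same order. With both libraries numbered 9 left out there were 184 transcripts and 167 loci (beside 4.32% and 4.8% of all rows tested).

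**Figure D2:**
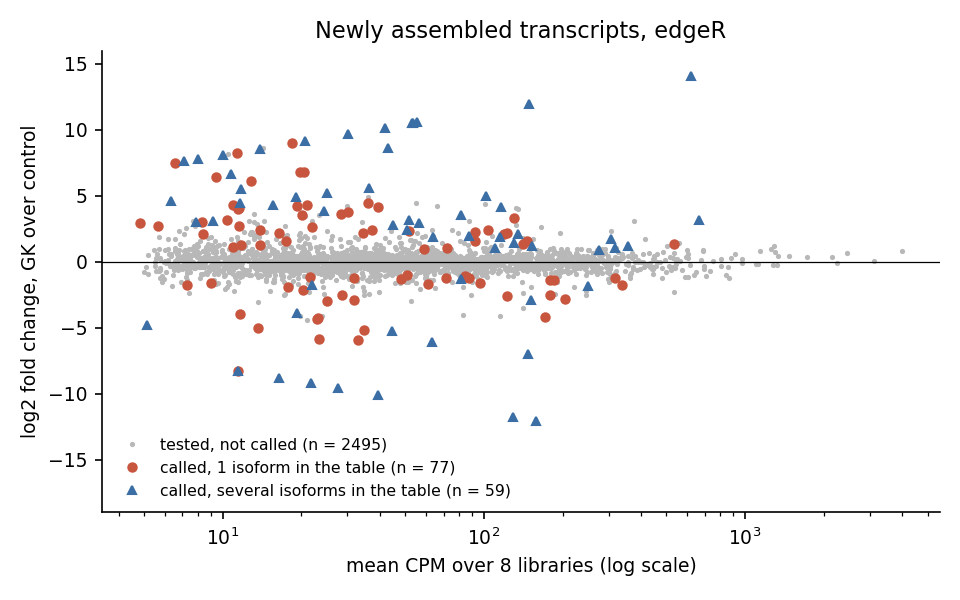
Log2 fold change (GK over control) against mean CPM over 8 libraries (log axis) for the 2631 tested members. Grey points were not called, circles are 77 called members of loci with 1 isoform in the table and triangles are 59 of loci with several; the outermost values belong to transcripts with 0 counts in a group and depend on edgeR's prior count.

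The largest rises were transcripts that had 0 counts in every control. The 6 described first lay inside genes, 5 of which did not pass the test themselves. MSTRG.18616.7 (chromosome 18, 56682364 to 56699148, 15209 nucleotides) lay inside Ppargc1b, which encodes a transcriptional coactivator of mitochondrial genes. Its counts were 0 in all 4 controls and 2485, 3197, 2204 and 678 in GK 7 to 10. The groups did not overlap, and GK exceeded the control floor, set at 3 counts over the group, at least 2947-fold (edgeR adjusted p = 0.00357). Another isoform of the locus, MSTRG.18616.9, is 15179 nucleotides long with the same start and end, and had 2099, 0, 0 and 2296 counts in controls. A further one, MSTRG.18616.5 of 15260 nucleotides, had 0, 3425, 1636 and 0, so each control library counted 1 of these 2 and not the other. Summed over its 4 isoforms the locus had 2099, 3425, 1636 and 2296 counts in controls and 4834, 4086, 2204 and 4419 in GK, which overlap (log2 fold change 0.66 ± 0.42, adjusted p = 0.448). For Ppargc1b the means were 167 ± 67.9 (control) and 220.2 ± 89.9 CPM (GK), with SD and n = 4 each (edgeR adjusted p = 0.570).

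Arhgap31 also held an isoform at 0 in every control, but there the controls all counted the same isoform, MSTRG.8782.1. MSTRG.8782.2 (chromosome 11, 64611601 to 64624560) had 0 counts in controls and 384, 927, 131 and 510 in GK, at least 672-fold higher (edgeR adjusted p = 0.0113). MSTRG.8782.1, which starts at the same base and ends 6 bp later, was counted in all libraries, from 169 to 740 in controls and from 230 to 426 in GK. Over the 3 isoforms of the locus in the table, the sum ran from 169 to 740 in controls and from 1045 to 1330 in GK, without overlap. That sum did not pass the test (log2 fold change 1.10 ± 0.43, edgeR adjusted p = 0.217). MSTRG.37469.2 inside Trps1, a GATA-type repressor, had 0 counts in controls and 36, 445, 88 and 169 in GK, at least 254-fold higher (adjusted p = 0.0294). Trps1 itself fell by 0.75 on the log2 scale (SE 0.16, adjusted p = 0.0299). MSTRG.28194.14 inside Ptpn12, a tyrosine phosphatase, was at least 266-fold higher (89, 46, 516 and 123 counts in GK, adjusted p = 0.0267). MSTRG.21075.4 inside Slc1a3, a glutamate transporter, was at least 245-fold higher (378, 200, 74 and 60 counts, adjusted p = 0.0202). In none of these 3 loci did the summed isoforms pass the test (adjusted p = 0.205, 0.131 and 0.613). The call of MSTRG.37469.2 was lost without any 1 of the controls or without GK 10 (adjusted p 0.0528 to 0.0814), that of MSTRG.28194.14 without control 8, control 10, GK 7 or GK 10 (0.0529 to 0.0715) and that of MSTRG.21075.4 without GK 8 (0.0679).

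At Wdr47, which encodes a microtubule-associated WD-repeat protein, the whole locus was read in GK alone. MSTRG.22975 (chromosome 2, 211383921 to 211390580) had 0 counts in the 4 controls over its 3 isoforms and 260, 263, 278 and 268 in GK 7 to 10. The 4 GK sums lay close together, while isoform MSTRG.22975.1 ran from 37 to 175 and MSTRG.22975.2 from 103 to 191. The locus was at least 368-fold higher in GK (159 ± 14.1 CPM, edgeR adjusted p = 0.00066). The Wdr47 gene had 15.1 ± 0.742 CPM in control and 19.5 ± 6.79 CPM in GK libraries (adjusted p = 0.321).

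**Figure D3:**
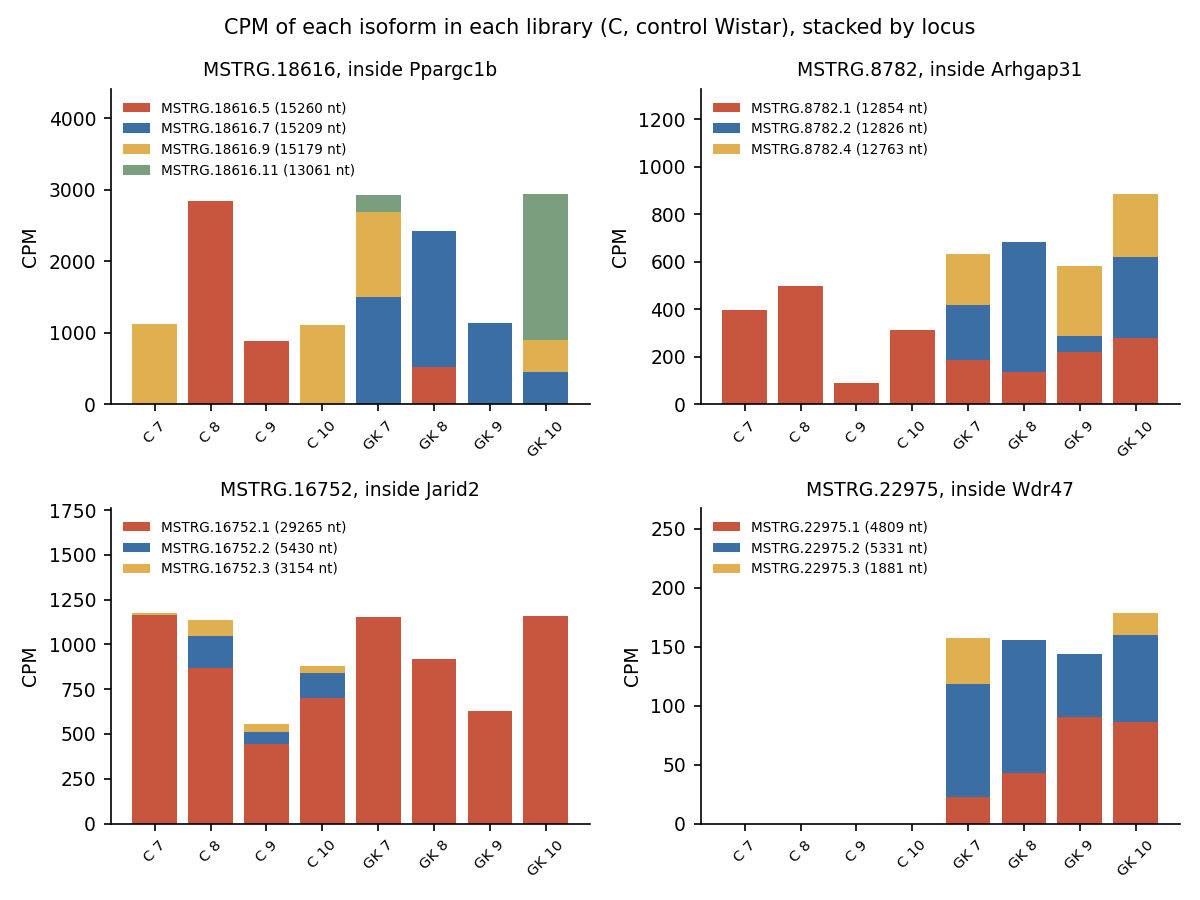
CPM of each isoform in each library, stacked, for the loci inside Ppargc1b, Arhgap31, Jarid2 and Wdr47 (C 7 to C 10 are control libraries). In the first 3 loci every library has counts. At Ppargc1b the isoform with the most counts differs between libraries, at Arhgap31 the controls hold MSTRG.8782.1 alone, and at Jarid2 MSTRG.16752.1 holds most counts in all 8; the locus inside Wdr47 is at 0 in all controls and between 260 and 278 counts in GK.

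Large falls had the same form. MSTRG.21616.2 (chromosome 2, between genes) had 517, 411, 69 and 1262 counts in controls and 0 in all GK libraries, at least 729-fold lower in GK (edgeR adjusted p = 0.020). MSTRG.21616.1, with the same start and end and a length of 11992 against 11964 nucleotides, had 462, 277, 22 and 276 counts in controls and 439, 491, 613 and 496 in GK. The locus sum did not pass the test (log2 fold change -0.68 ± 0.51, adjusted p = 0.523). Without control 7, 8 or 10 the call of MSTRG.21616.2 was lost (adjusted p 0.0508 to 0.0575). MSTRG.83.1 inside Sash1, an adaptor protein gene, had 114, 59, 184 and 219 counts in controls and 0 in GK, at least 186-fold lower (adjusted p = 0.00357), and kept its call without any 1 library. Its locus, together with MSTRG.83.2, had 60 to 264 counts in controls and 145 to 262 in GK (log2 fold change -0.04 ± 0.31, adjusted p = 0.974).

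MSTRG.16752.3 inside Jarid2, a subunit of Polycomb repressive complex 2, had 13, 103, 80 and 80 counts in controls and 0 in GK, at least 89.1-fold lower (edgeR adjusted p = 0.0329). In the same locus MSTRG.16752.1, of 29265 nucleotides, had 827 to 2182 counts in controls and 1218 to 1912 in GK, and the locus sum did not pass the test (0.04 ± 0.28, adjusted p = 0.964). The call of MSTRG.16752.3 was lost without control 8, 9 or 10 or without GK 7, 8 or 10 (adjusted p 0.0663 to 0.0925). MSTRG.23533.1 inside Hs2st1, a heparan sulfate sulfotransferase gene, had 68, 17, 72 and 88 counts in controls and 0 in GK, at least 79.1-fold lower (adjusted p = 0.00909). Hs2st1 itself fell by 0.76 on the log2 scale (SE 0.17, adjusted p = 0.0355), and the locus sum stood at -0.81 ± 0.24 (adjusted p = 0.107). MSTRG.27813.7 (chromosome 3, 12692 bp from Ctcfl, a germline paralogue of CTCF) had 43, 241, 192 and 353 counts in controls and 0, 12, 0 and 0 in GK (log2 fold change -6.07 ± 1.22, adjusted p = 0.0378). That call was lost without control 8, 9 or 10 or without GK 7 or 10 (adjusted p 0.0682 to 0.117).

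In 2 loci, isoforms passed the test in opposite directions. At MSTRG.14002 (chromosome 15, 102969 bp from Ptprg, a receptor tyrosine phosphatase gene) MSTRG.14002.23 had 477, 176, 199 and 1091 counts in controls and 0 in GK, at least 627-fold lower (edgeR adjusted p = 0.00895). MSTRG.14002.24, which starts 1 bp later, had 549, 194, 419 and 372 counts in controls and 731, 691, 1117 and 826 in GK. It rose from 215 ± 59.0 to 494 ± 81.8 CPM (adjusted p = 0.0334), while the sum over the 8 isoforms stood at 0.32 ± 0.18 (adjusted p = 0.380). At MSTRG.32978 (chromosome 5, near Oprd1, the delta opioid receptor gene) MSTRG.32978.33 had 149, 79, 61 and 89 counts in controls and 0 in GK, at least 122-fold lower (adjusted p = 0.00446). MSTRG.32978.32 rose from 93.6 ± 21.7 to 211 ± 34.2 CPM without overlap (adjusted p = 0.0338). The rises of MSTRG.14002.24 and MSTRG.32978.32 were lost without any 1 of several libraries (without control 8, 9 or 10 or GK 7, 8 or 10 for both, and without control 7 for the second; adjusted p 0.0550 to 0.111).

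From raw counts, 54 members were present in 1 group only, with a count in each of its 4 libraries and 0 in all 4 of the other. GK alone had 41 (1.24% of members, beside 0.313% of all lncRNA rows), and control alone 13 (0.392%, beside 0.185%). Over both directions this was 1.63% of members and 0.319% of the other lncRNA. The counts over the group ran from 10 to 8564 in GK-only and from 7 to 2259 in control-only members, which were at least 3.44- to 2947-fold and 2.26- to 729-fold apart. Of the 41, 16 lay inside genes, 4 overlapped one in part and 21 lay between genes. With a count in any library of the group in place of all 4, 143 members were seen in GK alone and 87 in control alone. No share over all lncRNA rows is given for this looser count. MSTRG.17539.64 inside Celf2, a splicing regulator gene, was control-only with 3, 801, 3 and 1203 counts. MSTRG.27811.4, which partly overlaps Ctcfl was GK-only with 132, 1, 25 and 128. Neither passed the filter on low counts, so neither was tested.

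Fewer loci than transcripts were read in 1 group only. Summed isoforms were at 0 in all controls and above 0 in all GK libraries for 20 of 2654 loci (0.754%), which held counts of up to 1069. They were control-only for 4 loci (0.151%), with up to 164 counts. Over all lncRNA rows, not summed, these shares were 0.313% and 0.185%. So 20 of the 37 loci behind the GK-only transcripts kept 0 in the other group when their isoforms in the table were summed. Of the 12 behind the control-only ones, 4 did. Isoforms absent from the table, as at MSTRG.10981 (1 in the table, highest number 2), are not part of these sums. By edgeR 5 of the 20 and 1 of the 4 were called, beside 2.86% of all rows tested with loci summed. These loci were picked for 0 counts in a group of the same libraries, so nothing is read from these calls.

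A set of 5 GK-only loci lay together on chromosome 8. MSTRG.39568, MSTRG.39569, MSTRG.39570, MSTRG.39564 and MSTRG.39573 lay within 197944 bp (61971828 to 62169771), between genes. They hold 6 members, and no other lncRNA row of the table overlaps the stretch. Together they had 0 counts in every control and 608, 140, 105 and 83 counts in GK 7 to 10, so that GK 7 was the highest and GK 10 the lowest. By edgeR, MSTRG.39568 (at least 143-fold higher, adjusted p = 0.0305) and MSTRG.39570 (at least 51.9-fold, adjusted p = 0.0366) were called. MSTRG.39569 was not (at least 66.0-fold, 130, 31, 22 and 9 counts, adjusted p = 0.0548). The nearest gene of these 3, RGD1305464, rose by 0.96 ± 0.20 (adjusted p = 0.0286). The call of MSTRG.39568 was lost without any 1 control or without GK 8 (adjusted p 0.0512 to 0.0836), and that of MSTRG.39570 without any 1 control or without GK 8 or GK 10 (0.0575 to 0.0836). The stretch was singled out after its values were seen.

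Loci with the largest summed changes, 8 in each direction, were picked after the values were seen. Among the rises, MSTRG.6872 (chromosome 10, 71984285 to 72067915, 1 isoform, between genes) had 0 counts in controls and 100, 81, 24 and 39 in GK. It was at least 83.9-fold higher (edgeR adjusted p = 0.0148), a call lost without GK 8 (adjusted p = 0.0520). MSTRG.10981 inside C4bpa, a plasma inhibitor of complement, had 0 counts in controls and 18, 21, 28 and 22 in GK, at least 30.6-fold higher (adjusted p = 0.00391). C4bpa stood at -3.42 ± 0.90 with an adjusted p of 0.0556. Inside Tspan18, a tetraspanin gene, MSTRG.26281 had 0, 1, 0 and 1 counts in controls and 50, 88, 34 and 93 in GK. Its summed-count ratio (summed counts over summed library totals, GK over control) was 137 (counting interval 37.5 to 1134, edgeR adjusted p = 0.00282). MSTRG.26276 in the same gene had 2, 0, 0 and 0 against 35, 77, 24 and 116, a summed-count ratio of 130.0 (35.6 to 1079, adjusted p = 0.00913). MSTRG.18544 on chromosome 18 had 1 count in controls and 318, 81, 52 and 59 in GK. Its summed-count ratio was 526 (94.0 to 20819.8, edgeR adjusted p = 0.00678), with mean CPM of 0.207 in control and 76.6 in GK libraries. GK was above every control in each of these loci, as their choice required.

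Among the falls, MSTRG.8718 (chromosome 11, 60942355 to 60954901) had 25, 24, 39 and 76 counts in controls and 0 in GK, at least 53.0-fold lower (edgeR adjusted p = 0.00754). Its neighbour MSTRG.8720 had 124, 30, 148 and 184 against 0, 0, 7 and 0 (log2 fold change -5.93 ± 0.88, adjusted p = 0.0121). The gene nearest to both, RGD1311458, stood at -0.06 ± 0.15 (adjusted p = 0.824). MSTRG.32295 on chromosome 5 had 106, 115, 74 and 161 counts in controls and 3 in each GK library (-5.19 ± 0.37, adjusted p = 0.00066). MSTRG.37763 on chromosome 7 had 73, 30, 122 and 98 against 3, 7, 3 and 2 (-4.28 ± 0.45, adjusted p = 0.00273). MSTRG.27743, MSTRG.1663 and MSTRG.43367 stood at -5.85, -5.05 and -4.31 on the log2 scale (adjusted p = 0.00751, 0.00925 and 0.0240). The call of MSTRG.43367, near Sytl5, a vesicle-traffic gene, was lost without control 10, GK 7 or GK 8 (adjusted p 0.0564 to 0.0915), and 12 of the 16 loci kept their calls without any 1 library. The remaining fall, MSTRG.23736 near RT1-CE10, stood at -5.60 ± 0.44 (edgeR adjusted p = 0.00075). No GK library reached a control in any of these 8 loci, as their choice required.

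**Figure D4:**
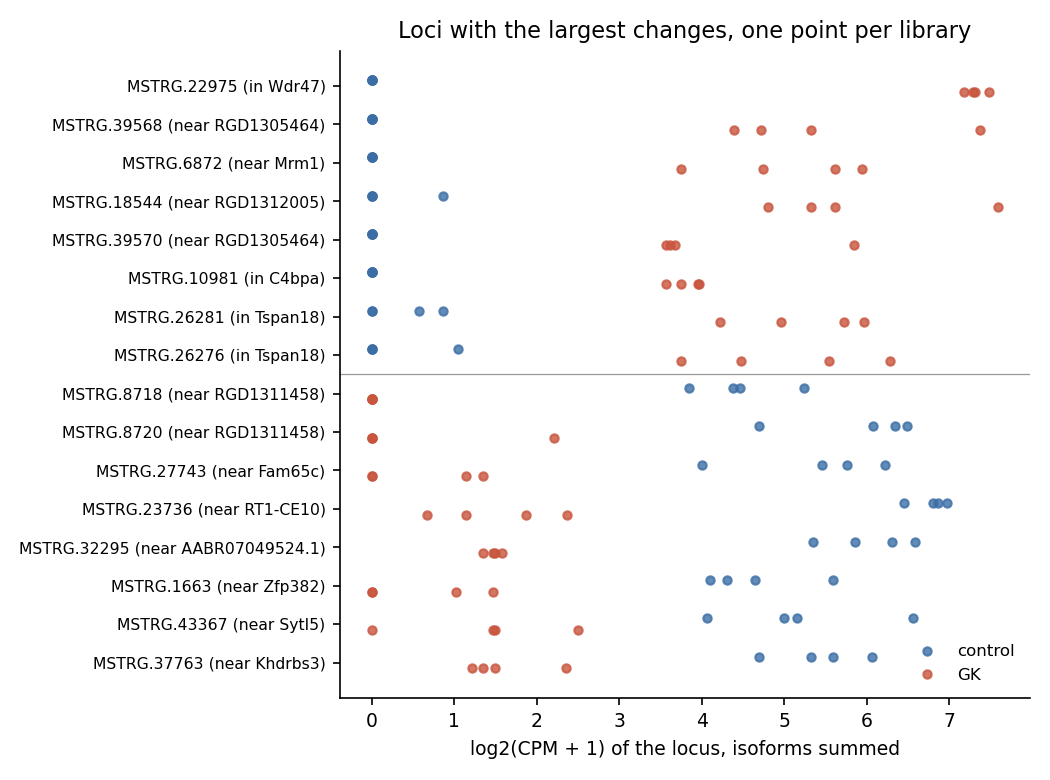
Level of the 16 loci with the largest called changes, isoforms summed, as log2(CPM + 1) with 1 point per library; blue is control and red GK. The 8 upper loci are higher and the 8 lower ones lower in GK, and the groups do not overlap in any, as the choice of these loci required.

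Called members of different loci could lie side by side. There were 12 runs in which called members of at least 2 loci changed in the same direction with gaps of at most 100 kb, 6 higher and 6 lower in GK, with 27 members in all. The largest had 4 members of 2 loci on chromosome 14 (43640325 to 43776360) near Rbm47, an RNA-binding protein gene, all higher. Of these 4, MSTRG.12775.5 and MSTRG.12775.6 kept their call in 1 of 8 fits with 1 library left out (adjusted p up to 0.111 and 0.0979), and MSTRG.12775.11 in 2 of 8 (up to 0.0774). Runs higher in GK also lay inside Tspan18 and Ccdc3 and near Ido2, Celf2 and RGD1305464. In the run inside Zfp385d, MSTRG.13914.1 kept its call in 2 of 8 such fits (up to 0.141) and MSTRG.13915.2 in 4 of 8 (up to 0.0809). Runs lower in GK lay inside Fgf12, Zfp385d and Pdzd2 and near Dmp1, Pcdh7 and RGD1311458. Transcripts of a run may be pieces of 1 RNA, which these counts do not show.

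Of 1154 overlapped genes tested, 86 were called (7.45%, beside 7.28% of all genes tested), 43 higher and 43 lower in GK. Both the count and its place beside the whole gene table moved with the libraries kept. Leaving out control 10 gave 5 of 1156 (beside 0.974% of all genes), GK 8 gave 7 of 1156 (1.30%), GK 7 gave 8 of 1157 (1.34%) and GK 10 gave 14 of 1157 (2.10%). Leaving out control 8 gave 30 of 1157 (4.24%), control 9 gave 38 of 1155 (3.78%) and GK 9 gave 286 of 1156 (22.1%). The split by direction moved too, with 7 higher and 23 lower without control 8, 13 and 25 without control 9, and 21 and 39 without control 7. Whether a transcript and its gene differed in their change was tested on the log2 ratio of their CPM (limma over all pairs, Benjamini-Hochberg adjusted). Of 1584 pairs, 38 were called (2.40%, beside 0.997% of all lncRNA and gene pairs), 26 with a higher and 12 with a lower ratio in GK. These counts moved too, with 21 higher and 3 lower without GK 7, 24 and 4 without control 10, and 23 and 4 without GK 8. Without GK 9 there were 31 higher and 14 lower. Over all pairs the share called in these fits was 0.441%, 0.582%, 0.542% and 1.33%, in the same order. No share by direction is given. Where a member is at or near 0 counts in a group, the prior count sets much of the size of its ratio, so no size is given for these. The lowest adjusted p belonged to MSTRG.83.1 and Sash1 (lower ratio in GK, limma adjusted p = 4.89e-05). Sash1 had 177 ± 34.5 CPM in control and 132 ± 33.3 CPM in GK libraries.

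Other pairs with a low p held a member at or near 0 counts in controls, inside a gene that did not pass the test. MSTRG.19538.2 inside Inpp4b, an inositol phosphatase gene, had 0, 0, 1 and 0 counts in controls and 41, 28, 69 and 12 in GK. Its summed-count ratio was 155 (counting interval 27.4 to 6156). Its ratio to Inpp4b was higher in GK (limma adjusted p = 0.00041), while Inpp4b stood at 0.02 ± 0.27. MSTRG.22826.5 inside Magi3, a membrane scaffold gene, had 0, 1, 0 and 0 against 113, 143, 175 and 150. Its summed-count ratio was 599.8 (107 to 23729), and its ratio to Magi3 was higher in GK (limma adjusted p = 0.00046). MSTRG.9547.2 inside Fry, a large microtubule-binding protein gene, had 0 in all controls and 32, 27, 28 and 22 in GK, at least 37.5-fold higher. Fry stood at 297 ± 96.2 and 294 ± 38.8 CPM. The groups of all 3 transcripts did not overlap, and the sums of their loci were not called (edgeR adjusted p = 0.138, 0.109 and 0.266).

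Of the 58 called members that overlap a gene, 56 had a gene that was tested and 19 a gene that was called too (17 distinct genes). Transcript and gene come from the same libraries, so their values are given side by side and nothing is read from the number of shared calls. MSTRG.14963.5 inside Ednrb, the endothelin B receptor, had 73, 31, 71 and 56 counts in controls and 491, 213, 197 and 267 in GK. Its log2 fold change was 2.43 ± 0.36 (edgeR, adjusted p = 0.0141) and that of Ednrb 2.35 ± 0.39 (adjusted p = 0.0163), and their ratio stood at 0.12 ± 0.27 (limma adjusted p = 0.888). Without control 10 the call of MSTRG.14963.5 was lost (adjusted p = 0.0539). Inside Ccdc3, a gene for a secreted coiled-coil protein, MSTRG.17554.1 had 89, 49, 92 and 87 against 333, 377, 242 and 344 counts, and MSTRG.17552.11 of another locus had 94, 48, 87 and 76 against 350, 386, 242 and 367. They rose by 2.11 ± 0.23 and 2.22 ± 0.25 (edgeR adjusted p = 0.00395 and 0.00446) and Ccdc3 by 1.47 ± 0.35 (adjusted p = 0.0416). All GK libraries lay above all controls for both, and both kept their call without any 1 library. MSTRG.27286.1 inside Bcl2l1, which encodes an inhibitor of apoptosis, rose from 78.3 ± 9.59 to 203 ± 28.1 CPM (adjusted p = 0.00914), and Bcl2l1 by 0.89 ± 0.19 (adjusted p = 0.0317).

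The signs differed in 1 further pair with both called. MSTRG.41229.1 inside Hdgfrp2 had 3, 7, 6 and 14 counts in controls and 28, 39, 68 and 27 in GK, a rise of 2.42 ± 0.45 (edgeR adjusted p = 0.0294). Hdgfrp2 fell by 0.94 on the log2 scale (SE 0.16, adjusted p = 0.0178), and the ratio rose by 3.14 ± 0.40 (limma adjusted p = 0.0102). The call of MSTRG.41229.1 was lost without any 1 library other than GK 9 (adjusted p 0.0509 to 0.0874). Trps1 with MSTRG.37469.2, described above, was the other pair of opposite signs in which transcript and gene were both called.

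**Figure D5:**
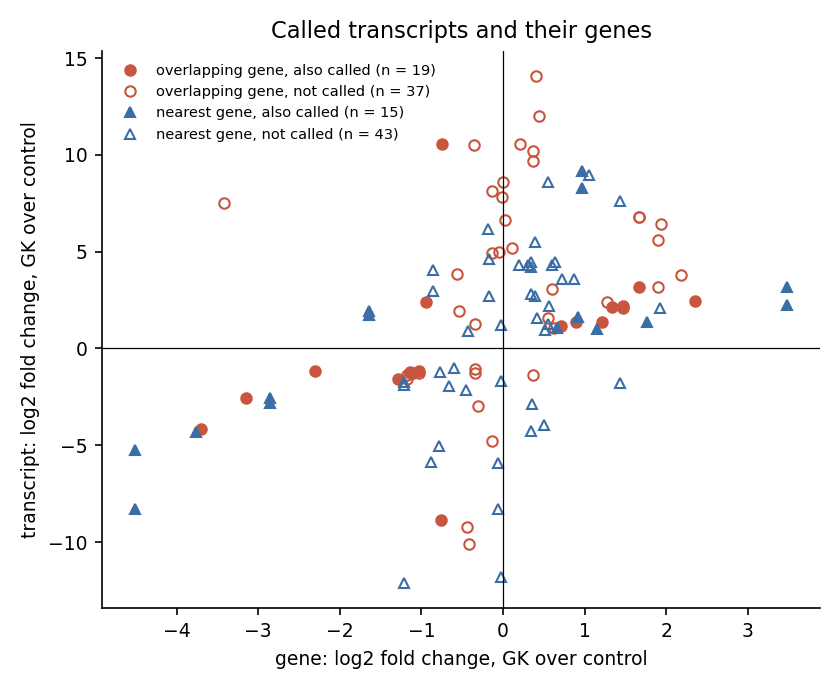
Log2 fold change (GK over control) of each called member against that of the gene it overlaps (circles) or, between genes, of its nearest gene (triangles), where that gene was tested. Filled symbols mark genes that were also called, 19 overlapping and 15 nearest; transcript and gene were measured in the same libraries.

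Between genes, 58 of the 78 called members had a nearest gene that was tested. For 15 members that gene was called, beside 7.28% of all genes tested. Members can share a nearest gene, as MSTRG.39568 and MSTRG.39570 do, and nothing is read from this number. Beside Dmp1, the gene of dentin matrix protein 1 of mineralised tissue, 2 loci fell. MSTRG.12320.1 (chromosome 14, 6905828 to 6908953, 5095 bp from Dmp1) had 469, 475, 688 and 866 counts in controls and 71, 100, 81 and 94 in GK. MSTRG.12319.8, 8316 bp from Dmp1, had 266, 258, 388 and 558 against 51, 55, 45 and 83. Every GK library lay below every control, and the log2 fold changes were -2.80 ± 0.24 and -2.56 ± 0.32 (edgeR, adjusted p = 0.00232 and 0.00674), with Dmp1 at -2.85 ± 0.28 (adjusted p = 0.00279). Beside RT1-CE10, an antigen-presenting class I histocompatibility gene, MSTRG.23736.1 had 214, 88, 95 and 223 counts in controls and 2, 1, 8 and 4 in GK. It changed by -5.27 ± 0.52 (adjusted p = 0.00305) and RT1-CE10 by -4.51 ± 0.31 (adjusted p = 0.00090). Class I genes have near-identical copies and how the authors' counting split their reads is not given, so these values are uncertain.

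On chromosome 16, MSTRG.16205.16 (77194960 to 77253969, 24219 nucleotides) had the highest mean CPM of the called rises with counts in every library. It had 238, 150, 343 and 189 counts in controls and 2390, 1419, 1569 and 2560 in GK, or 132 ± 38.9 and 1199 ± 445 CPM (edgeR, adjusted p = 0.00357, 3.18 ± 0.34 on the log2 scale). MSTRG.16211.1, 1 isoform on the same chromosome (77737027 to 77757460), had 55, 40, 82 and 49 against 348, 164, 261 and 252 (2.22 ± 0.30, adjusted p = 0.00914). The groups did not overlap for either, and both kept their call without any 1 library. The gene nearest to both, AABR07026473.1, lies 741277 and 237786 bp away and stood at 3.48 ± 0.40 (adjusted p = 0.00564).

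Near Pcdh7 on chromosome 14, the 10 isoforms of MSTRG.12932 were lower in GK as a sum. The locus had 6937, 5018, 8298 and 8488 counts in controls and 1281, 2664, 3581 and 3065 in GK, without overlap. The log2 fold change was -1.40 ± 0.28 (edgeR, adjusted p = 0.0366), and Pcdh7 stood at -1.22 ± 0.33 (adjusted p = 0.0586). Of the isoforms, MSTRG.12932.20 alone was called (558, 484, 711 and 1014 against 132, 178, 235 and 189 counts, -1.86 ± 0.22, adjusted p = 0.00567). Others switched: MSTRG.12932.24 had 3213, 0, 2957 and 3225 counts in controls, and in control 8, where it had 0, MSTRG.12932.29 had 2025 against 2 or less in the other controls. The longest member of all, MSTRG.41526.3, had 952, 895, 422 and 3415 counts in controls and 4946, 2980, 829 and 2980 in GK, which overlap (adjusted p = 0.390). In MSTRG.3101, the locus with 13 isoforms, control 7 and control 10 held 237 and 366 counts against 5 to 85 in the other libraries (adjusted p = 0.511 for GK against control).

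In the authors' deposited table, 337 newly assembled transcripts were called, 220 UP and 117 DOWN, of 763 lncRNA called there. Of the 337, 161 passed the filter on low counts used here and 111 were called here, and 25 called here were not called in the authors' deposited table. Among the authors' 337 calls, 214 were in loci with several isoforms, 92 had the 0-and-50 pattern within a group, 32 had counts in 1 library only, and 202 had groups that did not overlap. The authors' deposited target table lists a gene of type cis for 174 members, which was the gene with the longest overlap for 113 and the nearest gene for 44. It lists trans targets for 118 members, 14853 pairs in all.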

How the data were processed

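Gene and lncRNA counts per library were deposited by the authors as whole-number tables, one row per gene or transcript. The lncRNA table also carries the authors' q-value and call for each transcript, and how these were made is not stated in the file headers. Per the submitters' processing notes, the tool was Bowtie 0.12.2 and the builds were mm9 and mm8, both of mouse, with no role given. No assembler is named. Groups came from the titles and characteristics.

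LncRNA counts were tested with edgeR 4.0.16 (quasi-likelihood, filterByExpr, TMM factors) in R 4.3.3 over the whole table, with Benjamini-Hochberg adjustment and a threshold of 0.05. The same fit was made with the isoforms of each assembled locus summed, and on the gene table. Ratios of transcript to overlapping gene were tested with limma 3.58.1 on log2 CPM with a prior count of 2. The standard error is the absolute log2 fold change over the root of F. CPM is the count over the lncRNA (or gene) total times its TMM factor. Against a group at 0, folds use a floor of 3 counts over the group. These folds and the summed-count ratios divide each group's summed counts by its summed scaled totals, and can differ from ratios of mean CPM. Intervals are 95% and cover counting error only. Overlap uses the deposited spans. Scripts were tested on simulated data with 200 changed rows.

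The transcripts, lists and tests were chosen with earlier results of these data known. Transcripts named are those with the largest called change (groups not overlapping, mean CPM of at least 1), the highest counts in 1 group only, the highest level per kb, the most isoforms, the extremes of length, the lowest p for the ratio and isoforms called in opposite directions. The largest locus changes and the further examples with a called gene were chosen after their values were seen. DESeq2 1.42.0 served as an alternative.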

Additional observations from a re-analysis of the deposited data

Results flagged for a closer look

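In 8 of 117 groups of 4 libraries examined (6.84%), 1 library stood far from the other 3. A chance rate of about 1 in 20 holds only for independent groups of normally distributed values. These groups are CPM values, some at 0, and some share reads. MSTRG.39570 has 1 isoform in the table, MSTRG.39570.1, and MSTRG.39568.1 is part of MSTRG.39568. The share of 6.84% therefore cannot be judged against that rate. GK 7 was high at the neighbouring loci of chromosome 8: 111 CPM for MSTRG.39568.1, 164.5 CPM for its whole locus MSTRG.39568, 56.2 CPM for MSTRG.39570.1 and 56.3 CPM for MSTRG.39570 summed in the locus table. It was also high at MSTRG.18544, with 192 CPM for the isoforms summed. GK 8 alone had counts of MSTRG.27813.7 within its group (7.10 CPM), against 124 ± 78.6 CPM in controls (SD, n = 4). Control 9 was low for MSTRG.16045.5 beside Adrb3 (117 CPM), and for MSTRG.6771.2 (49.1 CPM), each below the other 3 controls.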

How the results depend on the processing

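DESeq2 called 279 transcripts and 249 loci (beside 6.83% and 6.94% of all rows tested). With no filter on low counts edgeR called 79 and 61 (beside 0.65% and 0.664%). The cause was not tested. Leaving out 1 library gave 63 to 198 transcripts, 44 to 198 loci, 5 to 286 overlapping genes and 24 to 45 ratios. The share called moved as well, from 0.876% to 4.77% of all lncRNA and from 0.718% to 5.68% of all rows with loci summed. Over all genes it ran from 0.974% to 22.1%, and over all pairs from 0.441% to 1.33%. Overlapping genes called numbered 246 by DESeq2 (beside 18.2% of all genes), 255 without both libraries numbered 9 (18.7%) and 39 at 2-fold or more. No share over all genes is given at 2-fold. Members in 1 group only numbered 33 at 5 or more counts in each library, 210 at 10 or more over the group, and 61 to 69 with 1 library left out. No share over all lncRNA rows is given for these. The share difference ran from -1.09 to 0.22 points, and was 0.013 without control 7. With the replicate number as a block, 122 transcripts and 144 loci were called (beside 2.14% and 3.31% of all rows tested). So were 257 overlapping genes (beside 17.3% of all genes) and 21 ratios (19 higher, 2 lower, beside 0.397% of all pairs). Same-numbered lncRNA libraries correlated at 0.093, 0.052, 0.27 and -0.034, and numbers 7 and 9 but not 8 and 10 correlated best with their own number. In the gene table the correlations were 0.42, 0.068, 0.55 and 0.025, so the numbers were not taken to pair samples. Scaling by gene totals moved the median of all lncRNA to -0.12 and gave 129 calls (beside 2.76% of all lncRNA), 75 higher and 54 lower. Of 23 named called transcripts, 10 kept their call under every alternative run and 13 under every removal of 1 library. The files give no strand, so overlap on the same strand was not run. The 685 members not tested had a median of mean counts of 6.88, and some had high counts in few libraries.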
